A study of Mus musculus with 56 samples.

Results

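Capzb, Matk and Sfpq are 3 genes that had been noted in these arrays because a signal was low or lost in 1 inbred mouse strain while the other strains kept it: Capzb in FVB/NJ, Matk in NON/LtJ and Sfpq in RIIIS/J. All probe sets annotated to one of these symbols alone were taken, which gave 12 probe sets of 44951, namely 4 for Capzb, 2 for Matk and 6 for Sfpq. The tests used probe sets that exceeded log2 5 on 13 or more of the 54 arrays of strains with both regions, and 11 of the 12 passed this filter, of 16056 in all. The members were selected on their strain values, so the strain differences of their own probe sets are given as a description with no test. By that choice, 3 of 3 kept Capzb probe sets were low in FVB/NJ, though still measured, and 2 of 2 Matk probe sets fell below log2 5 in NON/LtJ. A signal is called lost here where it lay below log2 5 in that strain, a limit of the filter and not of detection. The grouping as losses seen by 2 probe sets did not hold for Sfpq: 1 of its 6 kept probe sets was lost in RIIIS/J, and the other 5 lay within or close to the range of the other strains.

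Capzb encodes the beta subunit of capping protein, a dimer with an alpha subunit from Capza1 or Capza2 that binds the fast-growing end of actin filaments and stops their growth, and that also caps the short actin-like filament of the dynactin complex. Matk encodes a cytoplasmic tyrosine kinase of blood cells and brain which, like its relative Csk, phosphorylates the inhibitory tail of Src family kinases. Sfpq encodes a nuclear RNA- and DNA-binding protein that dimerises with its relatives Nono and Pspc1, is part of paraspeckles, and acts in splicing and in the transcription of long neuronal genes. In neurons, actin capping bears on dendritic spine shape and Src family kinases bear on glutamate receptors.

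RNA of prefrontal cortex of 29 inbred strains, and of nucleus accumbens (ventral striatum) of 27 of them, was hybridised to 1-colour arrays of short oligonucleotide probes. Each of the 56 arrays held a pool of 3 males of a strain, untreated and aged 8 to 10 weeks, and FVB/NJ, NON/LtJ and RIIIS/J are inbred strains with no transgene in the labels. A strain thus had 1 array per region and no replicate, n is the number of strains, the spread given is the SD between the other strains, and strain and pool cannot be told apart. MRL/MpJ and NZO/HILtJ were measured in cortex only. Values are log2 intensity, 1 unit being a 2-fold change, and they are compared between strains or regions within a probe set, never between probe sets.

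The reference sequence just before the annotated start of each gene is shown because RefSeq's transcripts of the 3 genes begin there; each window is 150 bases of RefSeq on GRCm38.p6, plus strand, 5′ to 3′, with every CG pair, which reads the same on both strands, in capitals. All 3 genes matched the RefSeq promoter table. Capzb lies at chr4:139193961-139194110, Matk has an upstream start at chr10:81252785-81252934 and a second start at chr10:81257149-81257298, and Sfpq lies at chr4:127021151-127021300.
Capzb: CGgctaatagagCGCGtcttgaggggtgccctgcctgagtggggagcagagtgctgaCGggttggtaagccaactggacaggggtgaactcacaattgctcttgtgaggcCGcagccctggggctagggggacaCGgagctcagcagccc
Matk, upstream start: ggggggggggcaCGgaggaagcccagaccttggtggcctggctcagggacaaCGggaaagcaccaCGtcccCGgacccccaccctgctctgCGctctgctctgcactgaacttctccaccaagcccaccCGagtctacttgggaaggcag
Matk, second start: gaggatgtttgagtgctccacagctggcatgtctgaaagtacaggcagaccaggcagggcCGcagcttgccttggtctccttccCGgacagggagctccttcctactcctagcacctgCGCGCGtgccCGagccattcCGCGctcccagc
Sfpq: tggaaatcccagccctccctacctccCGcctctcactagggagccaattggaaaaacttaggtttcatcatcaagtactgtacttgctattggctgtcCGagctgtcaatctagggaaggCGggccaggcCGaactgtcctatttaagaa
These windows hold 6, 6, 8 and 4 CG pairs, and 41.4%, 41.4%, 34.6% and 51.3% of 32851 RefSeq promoter windows of the same length hold as many or more. They are reference sequence, no strain's own sequence was read, and the sequences of the array's probes were not used here. Whether a strain variant lies under a probe was not tested.

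The labelled regions carried their markers. The mean of the spiny projection neuron markers, which define striatum, lay between 7.87 and 11.06 on accumbens arrays and between 5.30 and 10.18 on cortex arrays, where only MA/MyJ stood high. The mean of the cortical excitatory neuron markers lay between 8.01 and 8.94 in cortex and between 3.35 and 5.32 in accumbens, and 0 of 5 measured blood cell markers had a mean above log2 5 in either region. The median intensity of an array lay between 9.93 and 10.42 in cortex and between 9.66 and 10.13 in accumbens. A list of 5 strains, namely MA/MyJ, BALB/cByJ, CE/J, NON/LtJ and WSB/EiJ, was taken as having arrays that stand apart. It was fixed by name, not by a cut-off on these measures. CE/J was at neither end of any of them, and NOD/LtJ, not on the list, had the highest cortical markers in accumbens. FVB/NJ was highest of 27 in spiny markers in accumbens (11.06). In cortex it ranked 28 of 29 from the lowest in spiny markers (5.58, median 5.45) and 27 of 29 in astrocyte markers (8.80, median 8.54). RIIIS/J ranked 2 of 27 from the lowest in interneuron markers in accumbens (7.73, median 8.18). Their part in the Capzb and Sfpq values was not tested. In bulk tissue, fewer cells of a type and less RNA per cell cannot be told apart.

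Capzb was low in FVB/NJ in both regions on each of its 3 kept probe sets. On 1424168_a_at, FVB/NJ stood at 6.99 in cortex, where the other 28 strains ran from 9.23 through a median of 9.77 to 9.96, and at 6.89 in accumbens, where the other 26 ran from 9.10 through 9.35 to 9.56. The other strains lay close together there, with SDs of 0.14 and 0.12, and FVB/NJ was 6.86-fold below their mean in cortex and 5.42-fold in accumbens. On 1417259_a_at, FVB/NJ stood at 6.40 in cortex against 7.97, 8.47 and 8.83 for the lowest, median and highest other strain, and at 6.46 in accumbens against 7.72, 8.06 and 8.46. These are 4.16-fold and 3.05-fold below the means of the others, whose SDs were 0.19 in both regions.

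The remaining bright Capzb probe set, 1453960_a_at, gave 5.32 in FVB/NJ cortex against 6.81, 7.84 and 8.43, and 5.34 in FVB/NJ accumbens against 6.59, 7.30 and 7.81. FVB/NJ was 5.59-fold and 3.79-fold below the means there, and the other strains spread more, with SDs of 0.37 and 0.32. In all 6 of these sets of values FVB/NJ lay below every other strain, by 1.26 to 2.24 log2 units. Every FVB/NJ value of the 3 probe sets remained above log2 5, so a low signal was still measured. The last Capzb probe set, 1431668_at, was above log2 5 on 0 of 56 arrays, with values between 2.69 and 2.85, and says nothing of the strains.

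**Figure D1:**
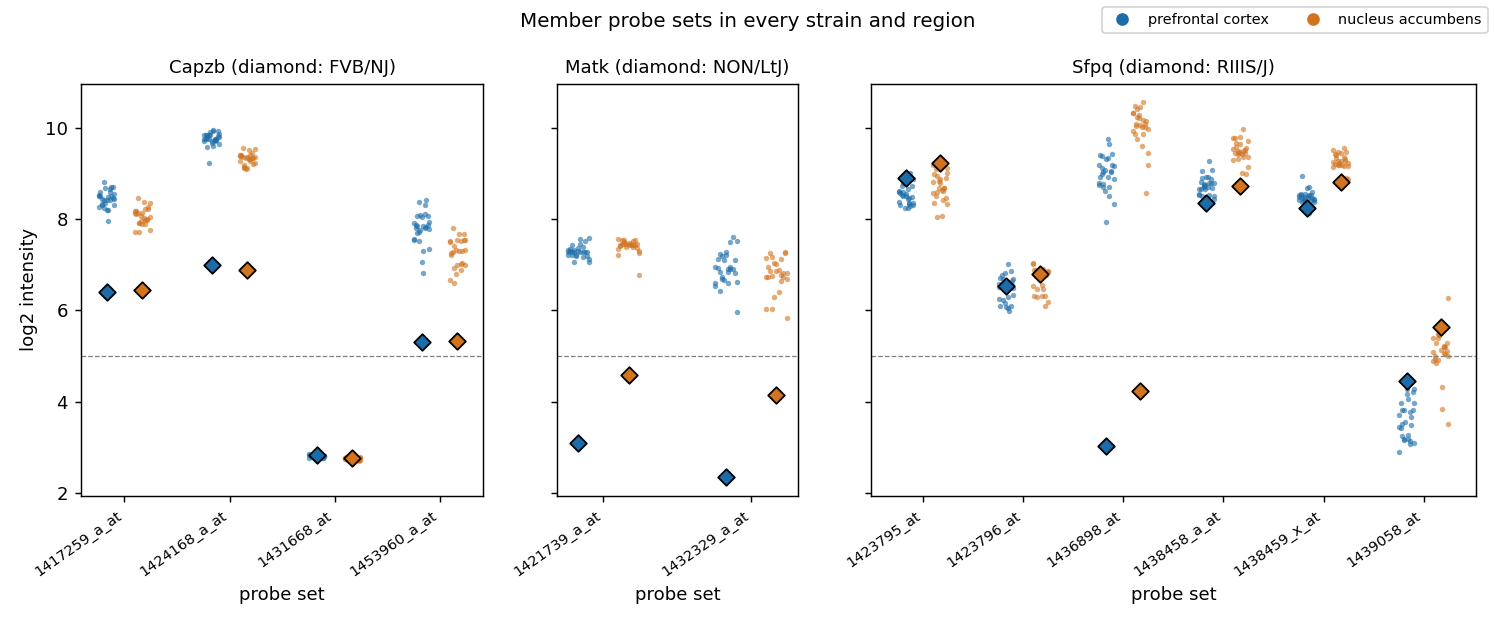
Log2 intensity (vertical axis) of each Capzb, Matk and Sfpq probe set (horizontal axis), with 1 small point per other strain, blue for prefrontal cortex and orange for nucleus accumbens. Diamonds mark FVB/NJ, NON/LtJ and RIIIS/J in their own panels, and the dashed line is log2 5. The diamonds lie below all points on 3 Capzb and both Matk probe sets, while for Sfpq only the 1436898_at diamonds, at 3.02 and 4.24, stand far below.

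Among the strains other than FVB/NJ, 1424168_a_at followed the other Capzb probe sets less closely than these followed each other. In cortex, 1417259_a_at and 1453960_a_at ran in parallel over 28 strains (Pearson r = 0.87), with SWR/J lowest on both at 7.97 and 6.81. On 1424168_a_at, SWR/J was the highest of these strains in cortex at 9.96, and the correlation of this probe set with the other 2 was 0.23 and 0.00. In accumbens over 26 strains the same pairs gave 0.59 and 0.38, and 1417259_a_at with 1453960_a_at gave 0.85. With FVB/NJ included the 2 cortex correlations of 1424168_a_at were 0.90 and 0.76, and those in accumbens 0.90 and 0.80. The points share the array, and the values describe these strains only.

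**Figure D2:**
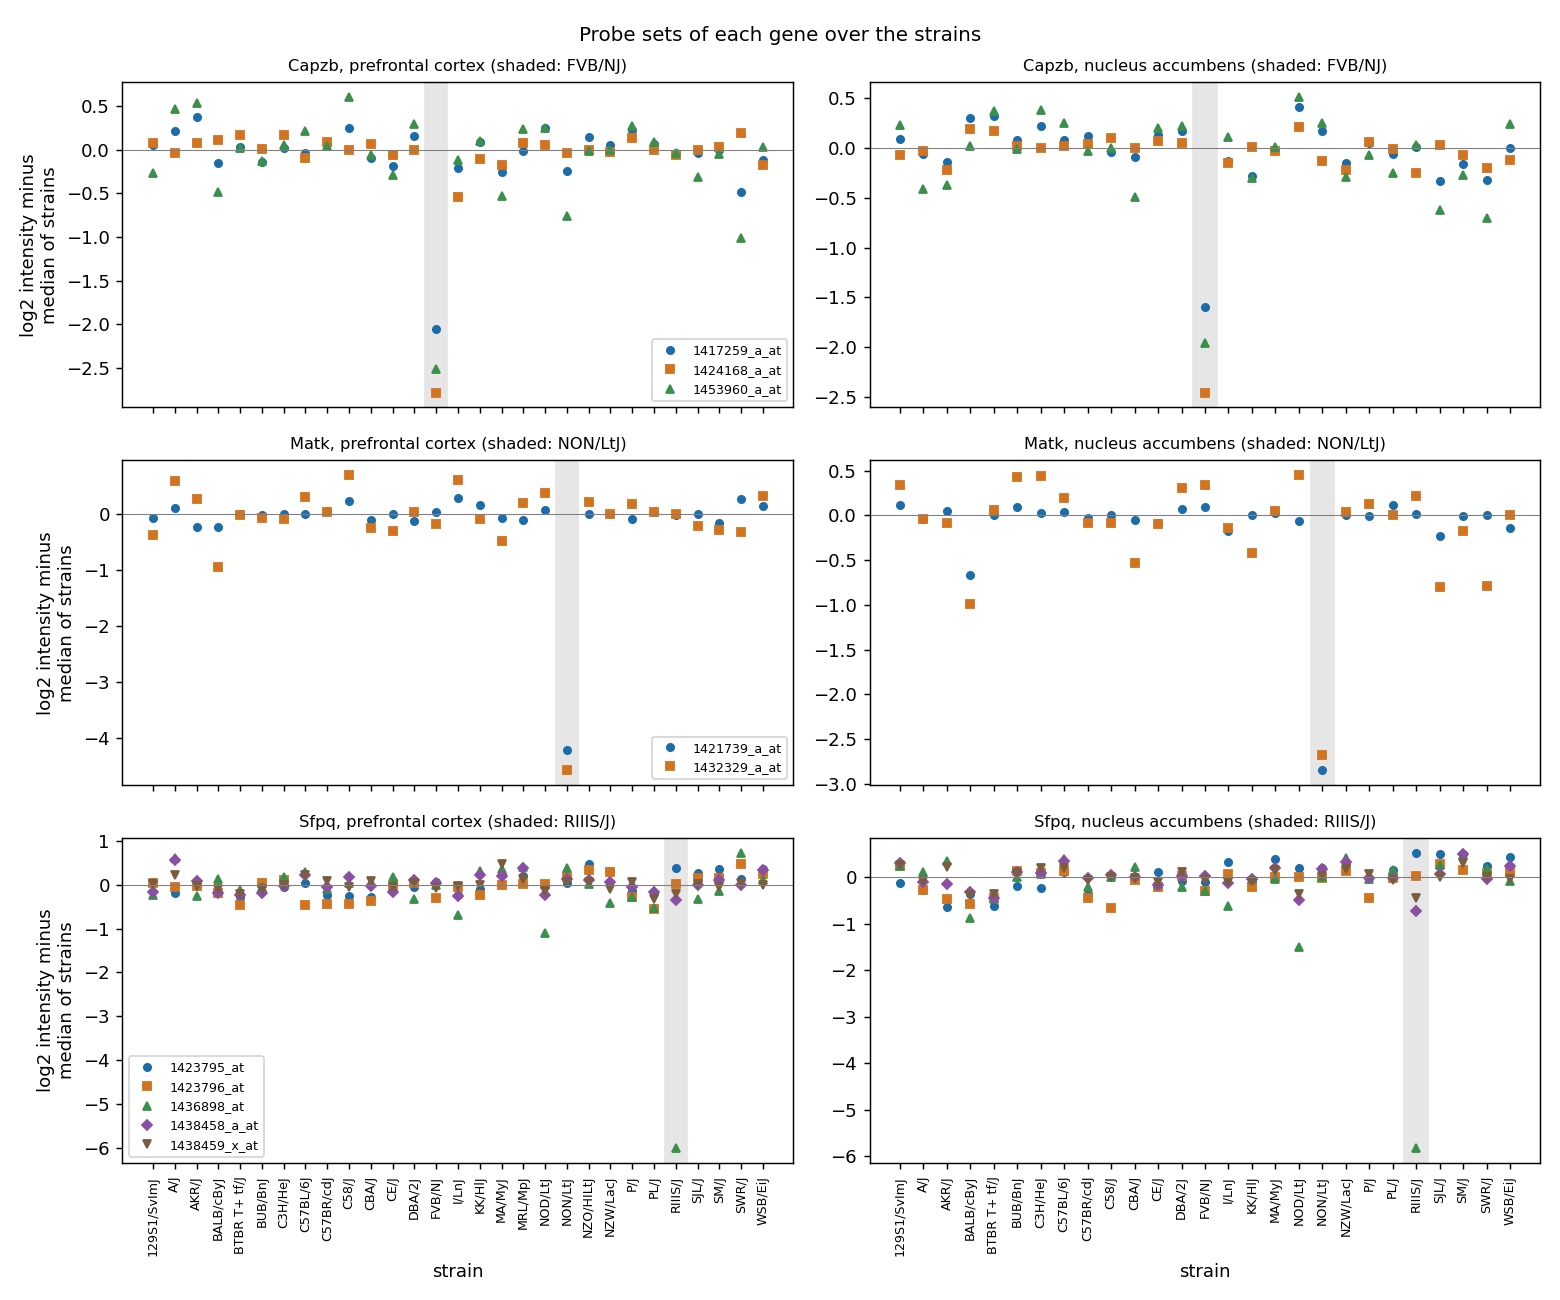
Log2 intensity minus the median of all strains (vertical axis) for each strain (horizontal axis), with cortex at left and accumbens at right and 1 marker shape per probe set. Shading marks FVB/NJ for Capzb, NON/LtJ for Matk and RIIIS/J for Sfpq. All plotted Capzb and Matk probe sets drop together in the shaded strain, and 1 of the 5 plotted Sfpq probe sets does.

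No partner of Capzb was called in FVB/NJ. In limma's comparison of FVB/NJ with the other 26 strains over all kept probe sets, on the mean of both regions, 14 of 16056 probe sets passed an adjusted p of 0.05 (Benjamini-Hochberg), which is 0.0872%, 2 higher and 12 lower. The alpha subunits did not pass: Capza1 differed by -0.06 (SE 0.27) on 1439455_x_at and by -0.16 (SE 0.23) on 1452038_at, and Capza2 by 0.06 (SE 0.12) on 1423057_at and 0.07 (SE 0.15) on 1423058_at. Capza3, the testis alpha subunit, had no kept probe set. Of the capping protein regulators 18 of 23 listed genes were measured, with a median difference of 0.00, of dynactin 7 of 9 with 0.00, and of the Arp2/3 and actin turnover genes 23 of 28 with 0.06, beside -0.01 over 8811 genes. By their brightest probe sets, 0 of the genes of these lists passed with limma, and 0 had an unadjusted p under 0.05, beside 2.66% of all 8811 genes.

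The Matk signal was lost, in the sense of falling below log2 5, in NON/LtJ on both of its probe sets. On 1421739_a_at, NON/LtJ stood at 3.09 in cortex, where the other 28 strains ran from 7.06 through a median of 7.29 to 7.58, and at 4.59 in accumbens, where the other 26 ran from 6.77 through 7.44 to 7.56. On 1432329_a_at it stood at 2.34 in cortex against 5.97, 6.91 and 7.61, and at 4.14 in accumbens against 5.84, 6.83 and 7.28. NON/LtJ lay below every other strain in all 4 sets of values, by 1.69 to 3.97 log2 units. All 4 NON/LtJ values were below log2 5, the limit of the filter, so folds were taken against log2 5: at least 4.92-fold in cortex and at least 5.31-fold in accumbens on 1421739_a_at, and at least 3.79-fold and at least 3.43-fold on 1432329_a_at.

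BALB/cByJ was the strain next above NON/LtJ for Matk in 3 of these 4 sets of values, and AKR/J was in the fourth, 1421739_a_at in cortex. The BALB/cByJ accumbens array, at 6.77 and 5.84, was also the lowest of 27 in the spiny projection neuron markers, at 7.87 against a median of 10.80, and the part of this in its Matk values was not tested. Without NON/LtJ, the correlation of the 2 Matk probe sets over strains was 0.49 in cortex (28 strains) and 0.66 in accumbens (26 strains), against 0.94 and 0.88 with it.

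Since all 4 Matk values of NON/LtJ were below log2 5, no difference between its regions can be read from them. The NON/LtJ accumbens array was second lowest of 27 in spiny projection neuron markers (9.27), highest in oligodendrocyte markers (11.20, median 10.27) and highest in astrocyte markers (9.14, median 8.21), and their part in its Matk values was not tested. Its cortex array was near the middle of the 29 in the spiny (5.48, median 5.45) and oligodendrocyte markers (8.70, median 8.85). That array ranked 5 of 29 from the lowest in microglia markers (6.42, median 6.67). It ranked 27 of 29 in the 3′ minus 5′ difference of the Gapdh control probe sets (0.05, median -0.21).

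No change of the Src family was called beside the low Matk signal. In limma's comparison of NON/LtJ with the other 26 strains, 21 of 16056 probe sets passed the adjusted p of 0.05, 0.131%, 2 higher and 19 lower. Csk, the closest relative of Matk, was 5.24 in NON/LtJ and 5.08 ± 0.12 (SD, n = 26) in the others, a difference of 0.16 (SE 0.12, adjusted p = 0.81). Fyn, a neuronal Src family kinase, was 8.61 in NON/LtJ on its brightest probe set 1417558_at, above the highest other strain at 8.54, and the difference of 0.25 (SE 0.10) did not pass (adjusted p = 0.64). Src differed by -0.54 (SE 0.28) on 1450918_s_at (adjusted p = 0.71). With limma, 0 of 4 measured kinases of 12 listed and 0 of 14 measured Src regulators and substrates of 22 listed passed, and 1 and 0 had an unadjusted p under 0.05, beside 7.18% of all 8811 genes. The median differences of the 2 lists were 0.08 and 0.03, beside 0.01 over all genes.

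Sfpq was lost in RIIIS/J on a single probe set. On 1436898_at, RIIIS/J stood at 3.02 in cortex, where the other 28 strains ran from 7.93 through a median of 9.03 to 9.75, and at 4.24 in accumbens, where the other 26 ran from 8.58 through 10.08 to 10.56. Against log2 5 this is at least 16.02-fold in cortex and at least 32.3-fold in accumbens below the means of the others. The next lowest strain was NOD/LtJ in both regions, and it was 4.91 and 4.34 log2 units above RIIIS/J.

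A second pair of Sfpq probe sets was slightly low in RIIIS/J. On 1438458_a_at, RIIIS/J was lowest in both regions, at 8.36 against 8.45, 8.72 and 9.27 in cortex and at 8.74 against 8.99, 9.48 and 9.98 in accumbens, so it lay 0.09 and 0.25 below the nearest strain. On 1438459_x_at, whose suffix marks probes that can bind other transcripts, RIIIS/J ranked 3 of 29 from the lowest in cortex at 8.25 and was lowest of 27 in accumbens at 8.81, 0.07 below the nearest strain. These distances to the nearest strain were under 1 SD of the other strains for 1438459_x_at in accumbens (0.18) and for 1438458_a_at in cortex (0.20). The distance was just over 1 SD for 1438458_a_at in accumbens (0.23). Against the means of the others, RIIIS/J was 1.30-fold lower in cortex and 1.69-fold in accumbens on 1438458_a_at (-1.85 and -3.27 SDs). On 1438459_x_at it was 1.17-fold and 1.37-fold lower (-1.54 and -2.49 SDs).

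The remaining 3 Sfpq probe sets were not low in RIIIS/J. On 1423795_at it stood at 8.91 in cortex, rank 28 of 29 from the lowest, and at 9.22 in accumbens, the highest of 27 strains, whose others ran from 8.05 to 9.20. On 1423796_at it ranked 16 of 29 and 17 of 27, at 6.54 and 6.79. On the dim 1439058_at it was the highest of 29 in cortex at 4.46 and ranked 25 of 27 in accumbens at 5.64; this probe set was above log2 5 on 0 cortex and 20 accumbens arrays and was kept through accumbens alone.

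Outside RIIIS/J, the lost probe set followed the 2 slightly low ones over strains more closely than the others. In accumbens over 26 strains, 1436898_at correlated with 1438458_a_at at 0.74 and with 1438459_x_at at 0.80, and in cortex over 28 strains at 0.59 and 0.55. Its correlation with 1423795_at was 0.12 in cortex and 0.14 in accumbens. The 2 probe sets 1423795_at and 1423796_at correlated with each other at 0.74 and 0.64. Pairs across these sets ran higher in accumbens than in cortex: 1423796_at with 1438458_a_at gave 0.55 and 0.17, 1423795_at with 1438458_a_at 0.50 and 0.30, and 1423796_at with 1438459_x_at 0.45 and 0.18. The dim 1439058_at correlated with the other 5 at 0.24 to 0.45 in accumbens. Probe sets of an array share its brightness and scaling, so these values are a description.

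Neither relative of Sfpq was called in RIIIS/J, and 1 of its RNA-binding partners, Matr3, was called higher only on probe sets other than its brightest. In limma's comparison of RIIIS/J with the other 26 strains, 37 of 16056 probe sets passed the adjusted p of 0.05, 0.23%, 11 higher and 26 lower. Nono differed by 0.09 (SE 0.09) on its brightest probe set 1448103_s_at and by 0.05 (SE 0.12) on 1415820_x_at, and Pspc1 by 0.09 (SE 0.16), none of which passed. By brightest probe sets, 0 of 16 measured paraspeckle genes of 18 listed and 0 of 25 measured splicing and RNA-binding partners of 27 listed passed, and 0 and 3 had an unadjusted p under 0.05, beside 3.77% of all 8811 genes. The median difference was 0.10 over the 25 partners and 0.07 over the 16 paraspeckle genes, beside -0.01 over 8811 genes. These medians were not tested against each other.

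Matr3, which encodes a nuclear matrix RNA-binding protein, was the partner called higher, on probe sets other than its brightest. On 1434888_a_at RIIIS/J stood at 11.60 and the other strains at 11.18 ± 0.06 (SD, n = 26), with 11.30 the highest, a difference of 0.42 (SE 0.08, limma adjusted p = 0.0064). On 1450874_at it stood at 11.16 against 10.39 ± 0.17 with 10.68 the highest, a difference of 0.77 (SE 0.17, limma adjusted p = 0.043). The brightest probe set, 1438368_a_at, differed by 0.34 (SE 0.08, limma adjusted p = 0.058), with RIIIS/J at 12.40 above the highest other strain at 12.15, and the dim 1458508_at differed by -0.11 (SE 0.21). In cortex arrays alone and in accumbens arrays alone the 2 calls were lost, at differences of 0.39 and 0.45 on 1434888_a_at (adjusted p = 0.12 and 0.080) and of 0.72 and 0.82 on 1450874_at (adjusted p = 0.89 and 0.087).

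Most neighbours of the 3 genes on the chromosome were not called in the strain where the member was low. The 5 nearest genes with a kept probe set on each side were read from RefSeq's gene order on GRCm38.p6, reaching 33, 11 and 35 genes away from Capzb, Matk and Sfpq. In each of the 3 sets 1 of 10 neighbours passed, beside the 0.0872%, 0.131% and 0.23% of all probe sets given above, and all 3 of them were lower in the strain concerned. The median difference of the 10 neighbours was 0.03 for Capzb, -0.07 for Matk and -0.15 for Sfpq.

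The neighbour of Capzb that fell in FVB/NJ was Emc1, a subunit of the endoplasmic reticulum membrane protein complex, 5 genes away on chromosome 4. It stood at 5.58 against 6.83 ± 0.21 (SD, n = 26), with 6.22 the lowest other strain, a difference of -1.25 (SE 0.21, limma adjusted p = 0.0044). In accumbens arrays alone the difference was -1.08 and the call was lost (adjusted p = 0.44). Akr7a5, an aldo-keto reductase gene 2 genes away, differed by 0.17 (SE 0.43) and was not called, and Ubr4, a ubiquitin ligase gene 6 genes away, differed by -0.20 (SE 0.14) with FVB/NJ lowest.

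The neighbour of Matk that fell in NON/LtJ was the gene next to it on chromosome 10, Mrpl54, a protein of the mitochondrial ribosome. It stood at 5.30 against 6.19 ± 0.16 (SD, n = 26), with 5.85 the lowest other strain, a difference of -0.89 (SE 0.17, limma adjusted p = 0.011). In either region alone the call was lost, at -0.67 in cortex (adjusted p = 0.46) and -1.11 in accumbens (adjusted p = 0.052). Zfr2, the gene next to Matk on the other side, differed by 0.02.

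The neighbour of Sfpq that fell in RIIIS/J was 5730409E04Rik, 11 genes away on chromosome 4. It stood at 4.65 against 8.23 ± 0.77 (SD, n = 26), and the lowest other strain was at 4.84, so this low level was not RIIIS/J's alone (difference -3.58, SE 0.75, limma adjusted p = 0.026). Without the 5 strains whose arrays stand apart it was -3.54 and not called (adjusted p = 0.053). AU040320, 4 genes away, was at 7.27 in RIIIS/J, below the lowest other strain at 7.38, and its difference of -0.30 (SE 0.10) was not called (limma adjusted p = 0.57). The genes next to Sfpq, Zmym4 and Zmym1, differed by -0.01 (SE 0.17) and -0.73 (SE 0.45) and were not called; Zmym1 was at 3.94 in RIIIS/J, below the lowest other strain at 3.99. RIIIS/J was thus lowest on 3 of the 10 neighbours, with values below log2 5 on Zmym1 and 5730409E04Rik. FVB/NJ was lowest on 2 of the 10 neighbours of Capzb, and NON/LtJ on 1 of the 10 of Matk. How often each strain was lowest over all genes was not counted, so nothing is read from these counts.

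**Figure D3:**
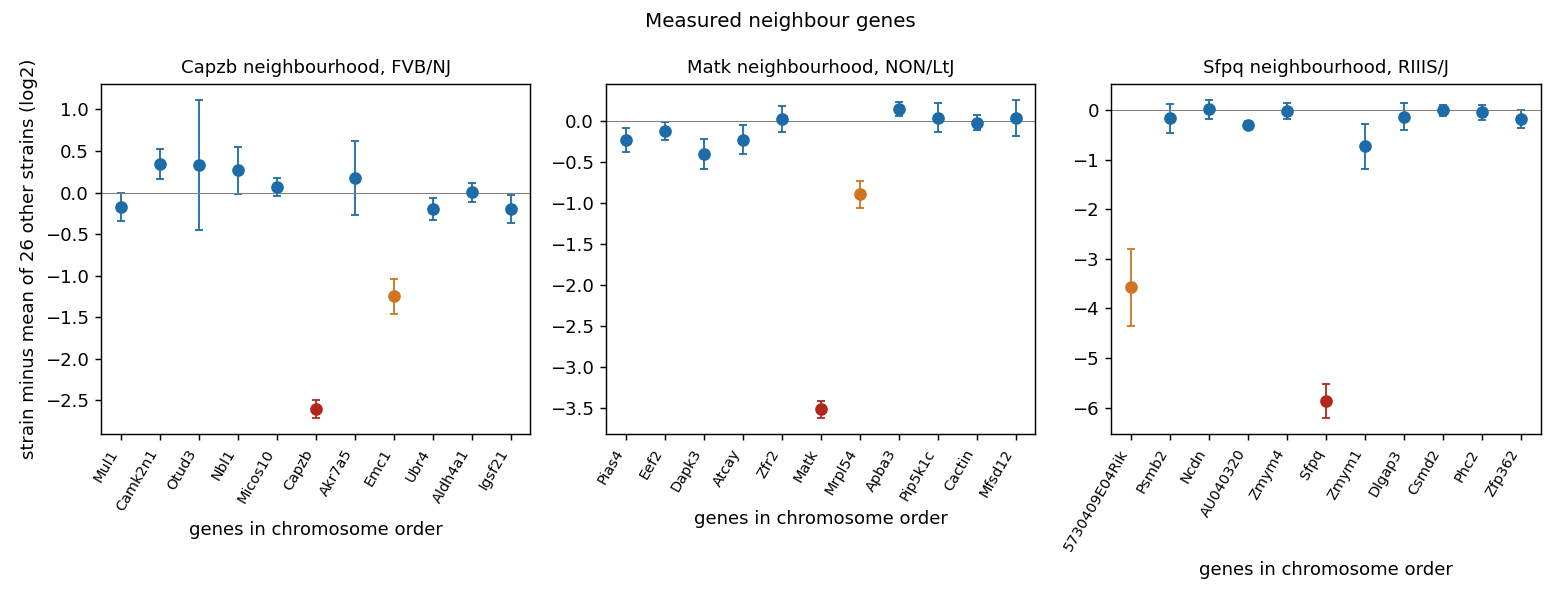
Difference of 1 strain from the mean of 26 other strains in log2 units (vertical axis) for each member and its 10 measured neighbours in chromosome order (horizontal axis), with bars showing 1 SD of the other strains. Red marks the member's brightest probe set, orange a neighbour that passed the adjusted p of 0.05, and blue the others. The orange points are Emc1 at -1.25, Mrpl54 at -0.89 and 5730409E04Rik at -3.58.

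Low signal in 1 strain on several probe sets was uncommon in these arrays. A probe set lowest in 1 strain, with every other strain 1 log2 unit or more above it in cortex and in accumbens, occurred 89 times in 16056, 0.554%, with 5 in FVB/NJ, 9 in NON/LtJ and 7 in RIIIS/J. Those with 1 gene symbol belonged to 64 named genes, of which 41 had at least 2 kept probe sets, out of 3467 such genes on the array. In 7 of the 41 at least 2 probe sets were low in the same strain, namely Wdfy1, Pclo, Akr7a5, Ywhaz, Capzb, Matk and Cryab. In 4 of these, Akr7a5, Capzb, Matk and Cryab, all kept probe sets were. The Capzb values closest to the limit of 1 were 1.26 on both 1453960_a_at and 1417259_a_at in accumbens, and the largest distances below 1 among member probe sets were those of Sfpq 1438458_a_at, 0.09 and 0.25. Since the 3 genes were chosen for this pattern, the counts describe how they stand and test nothing.

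The contrast between the regions, which the choice of genes did not use, was tested over all kept probe sets with limma and strain as a block. It is large in these tissues: 13380 of 16056 probe sets passed, 83.3%, 8320 higher and 5060 lower in accumbens, with a median shift of 0.13. Of the 11 kept member probe sets 10 passed, which is near that background, and without 1439058_at, which was kept only through accumbens, 9 of 10 did.

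Capzb was lower in accumbens than in cortex on 3 of 3 probe sets. The differences were -0.37 (SE 0.05) on 1417259_a_at, -0.42 (SE 0.04) on 1424168_a_at and -0.51 (SE 0.09) on 1453960_a_at, lower in 24, 27 and 24 of 27 strains, with adjusted p of 8.3e-08, 3.3e-12 and 3.4e-06 by limma. After quantile normalization of all arrays together they were -0.45, -0.50 and -0.62, and after centring each array -0.32, -0.38 and -0.47. In FVB/NJ, where Capzb was low, the differences were 0.06, -0.10 and 0.02, above the means of the others (-0.38, -0.43 and -0.53). FVB/NJ was outside the range of the other strains on 1417259_a_at alone, where they ran from -0.92 to 0.04.

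Sfpq was higher in accumbens on the 5 probe sets measured in both regions. The means over 27 strains were 1.03 (SE 0.08) on 1436898_at, 0.76 (SE 0.05) on 1438458_a_at and 0.78 (SE 0.04) on 1438459_x_at, higher in 27 of 27 strains each, with adjusted p of 1.2e-12, 2.5e-15 and 5.3e-18 by limma. On 1436898_at the 27 strains include RIIIS/J, whose values were below log2 5 in both regions. Without FVB/NJ, NON/LtJ and RIIIS/J the mean of 1436898_at was 1.05, with 24 strains higher and 0 lower. On 1423795_at and 1423796_at they were 0.20 (SE 0.05) and 0.21 (SE 0.05), higher in 21 and 22 of 27 strains, close to the median shift of all probe sets. On quantile-normalized arrays 1423796_at was at 0.07 and no longer called (adjusted p = 0.13), and 1423795_at was at 0.13. The dim 1439058_at went from 3.66 ± 0.47 to 5.10 ± 0.54 (SD, n = 27), which against log2 5 is at least 1.07-fold; it was kept only through accumbens, so its direction was fixed by the filter. RIIIS/J, the strain with the lost probe set, had 0.38 on 1438458_a_at and 0.56 on 1438459_x_at, below the means of the others at 0.77 and 0.79 and within their ranges.

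The region difference of Matk was small and depended on the probe set. It was 0.16 (SE 0.06, limma adjusted p = 0.019) on 1421739_a_at, higher in accumbens in 21 of 27 strains, and -0.06 (SE 0.10, adjusted p = 0.59) on 1432329_a_at. The call on 1421739_a_at was lost on quantile-normalized arrays, at 0.06 (adjusted p = 0.42). Without FVB/NJ, NON/LtJ and RIIIS/J the 2 differences were 0.10 (adjusted p = 0.032) and -0.16 (adjusted p = 0.063).

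**Figure D4:**
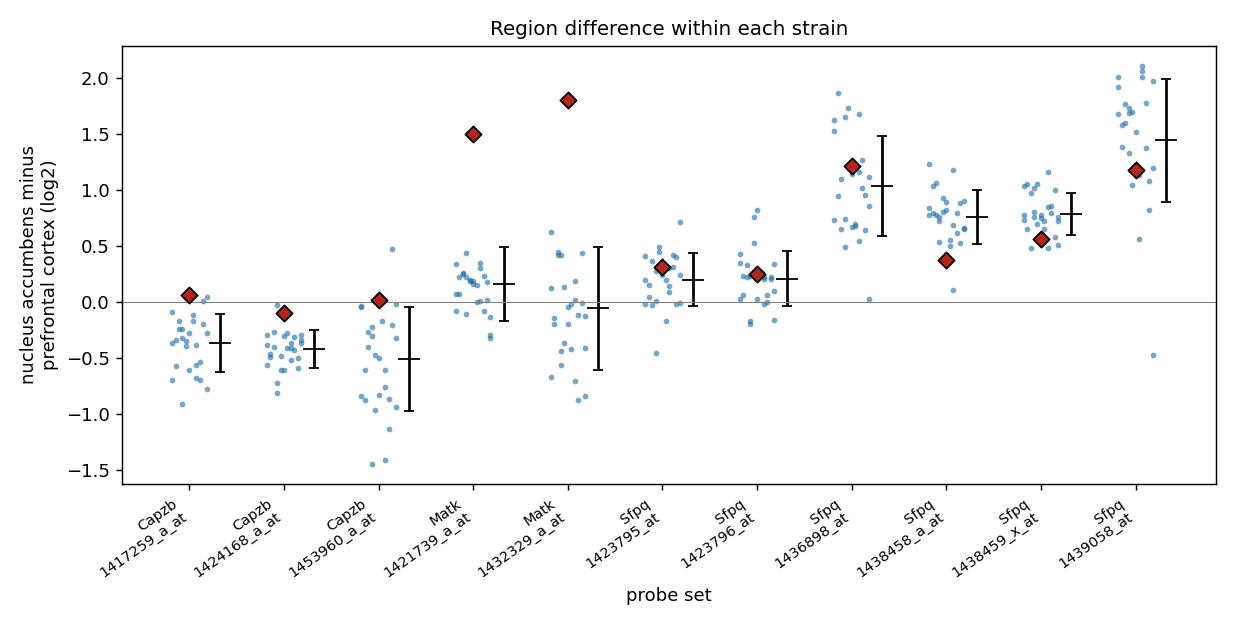
Nucleus accumbens minus prefrontal cortex in log2 units (vertical axis) for each kept probe set (horizontal axis), with 1 blue point per strain and a red diamond for FVB/NJ (Capzb), NON/LtJ (Matk) or RIIIS/J (Sfpq). Black bars are the mean and SD over 27 strains. Capzb lies below 0 (means -0.37 to -0.51), and 3 Sfpq probe sets lie near 1 (0.76 to 1.03) and 2 near 0.20. The NON/LtJ diamonds for Matk stand at 1.50 and 1.81, above every other strain, and the RIIIS/J diamond for 1436898_at at 1.21. They rest on values below log2 5 in both regions, so no region difference is read from them.

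Genes of each member's wider pathway also differed by region, as most genes did, and no list was tested against that share. Over all 8811 genes by brightest probe sets 83.8% were called, 4406 higher and 2974 lower in accumbens, with a median of 0.11. Against this, 12 capping regulators of 18 were higher and 6 lower in accumbens (median 0.24), 3 and 3 of 7 dynactin genes (median -0.08) and 11 and 7 of 23 actin turnover genes (median 0.05). Of the Csk and Src family kinases 1 of 4 was higher and 2 lower, and of the Src regulators and substrates 9 and 5 of 14. Of the paraspeckle genes 12 of 16 were higher and 4 lower (median 0.23), and of the splicing partners 19 and 4 of 25 (median 0.25). Nono, a dimer partner of Sfpq, was higher in accumbens by 0.56 on 1448103_s_at (adjusted p = 6.6e-17 by limma). Pspc1, its other dimer partner, was lower by 0.13 on 1423192_at (limma adjusted p = 0.043), opposite in direction to Sfpq. Capza2, a partner of Capzb, was lower by 0.26 on 1423057_at (adjusted p = 1.0e-07) and at 0.03 on 1423058_at (adjusted p = 0.46). Capza1 was higher by 0.54 on 1439455_x_at (adjusted p = 5.6e-08) and by 0.23 on 1452038_at (adjusted p = 0.020), opposite in direction to Capzb.

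The genes whose pattern was most like each member were found by Pearson correlation with its brightest probe set over 54 arrays centred by region. For Capzb 1424168_a_at they were Tmem222 (r = 0.85), Snhg12 (0.83), Emc1 (0.75), Ncoa7 (0.74) and Sema4a (0.62), all of which were called lower in FVB/NJ in the fit above. For Matk 1421739_a_at they were Dnajb6 (0.92), Ago2 (0.92), Sdr39u1 (0.91), Hsd17b12 (0.84) and Exd2 (0.84), all lower in NON/LtJ. For Sfpq 1436898_at they were Plekhm3 (0.82), Btbd9 (0.79), Ppp3r1 (0.78), Tmem123 (0.76) and Dcx (0.75), all lower in RIIIS/J. These likenesses were carried by the low strain: with it left out, over 52 arrays, none of the 15 was among the 5 most like its member.

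Without FVB/NJ, the 5 genes most like Capzb were Pi4ka (r = 0.69), Rab7 (0.67), Agap3 (0.65), Usp22 (0.64) and Eif5 (0.63). Those most like Matk without NON/LtJ were Tmem132a (0.72), Homer1 (0.72), Mrtfb (0.71), Mmp16 (0.70) and Mmd (0.70). Those most like Sfpq 1436898_at without RIIIS/J were Zbtb20 (0.68), Crym (0.67), Ago2 on another probe set (0.67), Rbm25 (0.65) and Ftx (0.64). Of these genes none passed in the strain left out. Arrays of a strain share the mice, and the values are a description.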

How the data were processed

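The authors deposited linear intensity values of 45015 probe sets of 1-colour mouse arrays, and GCRMA is named in the submitters' processing notes (version not given in the sources used here). Removing 64 controls left 44951 probe sets; the platform's gene table gives 34880 of them 1 symbol, 923 several and 9148 none. Values were turned to log2 with no pseudocount and kept above log2 5 on at least 13 of 54 arrays.

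A strain's mean over regions was compared with 26 strains, and regions with strain as a block, in limma 3.58.1 (R 4.3.3), with Benjamini-Hochberg adjustment at 0.05, and tested on simulated data. By the design text both regions came from the same brains; for 21 of 27 strains the accumbens array that correlated best with the cortex array was the strain's own. Folds against values below log2 5 are lower bounds. Other values came from Python 3.11.15 (pandas 2.3.3, scipy 1.17.1).

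Named were the member probe sets, their paralogues, up to 4 called genes per pathway list, 5 neighbours a side and the 5 most alike genes. Other genes (Matr3, Fyn, Src and those with losses on several probe sets) were named after their values were seen. Members and lists were chosen with earlier results of these data known. Alternatives were other filters, scalings, variance settings and thresholds, brightest probe sets, single regions, no block and fewer strains.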

Additional observations from a re-analysis of the deposited data

How the results depend on the processing

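The number of probe sets called in FVB/NJ was 14, and 423 with no filter. In NON/LtJ it was 21, and 413 with no filter, 9 with a filter at log2 7, 361 without the 5 strains whose arrays stand apart (NON/LtJ itself kept) and 36 on cortex arrays alone. In RIIIS/J it was 37, and 275 with no filter, 15 with a filter at log2 7, 24 with the brightest probe set per gene and 58 without the 5 strains. A lower or higher filter changes how many probe sets are tested; the cause of the other changes was not tested. The fit that treats all arrays of a strain as separate, with no replicate block, gave 25, 46 and 84 calls, and the sign of the 6 low probe sets was kept in every setting run. With the brightest probe set per gene 3 members were tested by region, and 3 passed.

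Strain differences by region, with no test, were -2.06 in cortex and -1.61 in accumbens for Capzb 1417259_a_at, -2.78 and -2.44 for 1424168_a_at, and -2.48 and -1.92 for 1453960_a_at, and for Matk -4.21 and -2.82 on 1421739_a_at and -4.58 and -2.63 on 1432329_a_at; the Matk values are as measured with NON/LtJ below log2 5, so only the lower bounds of the fold changes hold for their size. Sfpq 1436898_at kept its value within 1 SD of the other strains in every setting run. Of 100 checks on these counts and the 6 low probe sets, 77 kept their value and 23 moved, all given here. Of 265 checks on other values of single probe sets, 245 kept their direction and side of the threshold, or their value, 15 lost a call, 4 gained one and 1 moved. One array per strain and region, and signals below log2 5 in NON/LtJ and RIIIS/J, limit how well the depth of a loss can be given.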

Other observations

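Other genes called in the same strains shared a chromosome with the member in some cases, a count made after the calls were seen. In FVB/NJ, 3 of 7 named genes called beside Capzb lay on chromosome 4, where 6.16% of the measured genes lie: Emc1, Tmem222 (200 genes away; 5.74 against 7.24 ± 0.12, SD, n = 26) and the non-coding RNA gene Snhg12 (243 genes away; 4.89 against 7.50 ± 0.31). In NON/LtJ, 3 of 17 lay on chromosome 10 with Matk (4.88% of measured genes): Mrpl54, Cfap410 (180 genes away; 3.18 against 4.94 ± 0.15) and Pex7, the import receptor for a class of peroxisomal proteins (1093 genes away; 5.81 against 6.83 ± 0.15). In RIIIS/J, 2 of 27 lay on chromosome 4 with Sfpq: 5730409E04Rik and 2510039O18Rik, which was higher (663 genes away; 5.87 in RIIIS/J, a difference of 0.87, SE 0.17).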
